A study of Mus musculus with 6 samples.

Results

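Granule proteases are the enzymes that neutrophil precursors, basophils, mast cells and cytotoxic lymphocytes store in their secretory granules. The genes described here were chosen by symbol, with earlier results of these data known: Elane, Prtn3, Ctsg, Prss57, Mcpt8, Gzmb, Cpa3 and Prss34. All 8 symbols were present in the deposited table of 55471 gene IDs, and all 8 were among the 13348 genes tested. RNA was sequenced from mouse granulocyte-monocyte-lymphoid progenitors (GMLPs), which are bone marrow cells sorted by flow cytometry as lineage-negative, Kit+, Sca1+, CD48+ and CD150-. One group of 3 libraries carried MLL-ENL alone (ME), and the other group of 3 carried LIN28B together with MLL-ENL (L28BME). Both groups thus carried the leukaemia fusion, and both had been cultured with doxycycline (DOX) for 3 days after sorting. LIN28B binds RNA and is normally found in fetal blood cells, and the design asks what it changes in the RNA of cells that already carry the fusion. The sources used here do not give the promoters that drive the transgenes, the age of the mice, or whether the replicates came from separate animals. P-values are therefore set against the spread of these libraries alone, and that spread may be technical.

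In textbook accounts, Elane, Prtn3, Ctsg and Prss57 encode the serine proteases of azurophil (primary) granules, which are made at the promyelocyte stage of neutrophil development. Ctsg, Mcpt8 and Gzmb belong to a cluster of related chymase and granzyme genes on mouse chromosome 14, whereas Cpa3 encodes a zinc carboxypeptidase of mast cells and basophils and Prss34 a tryptase-like protease of basophils and mast cells. The serine proteases are made as inactive precursors, and many are trimmed to the active form by cathepsin C. Some granule proteases, but not all, are held in the granule by the proteoglycan serglycin.

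The promoter sequences below are given because pairs of these genes lie side by side in the genome. RefSeq (GRCm38.p6) held a promoter for 7 of the 8 genes, and the 250 bases before each RefSeq start were searched. Positions are counted from that start, with -1 as the base before it. Shared runs were sought on the strand of the gene, and the RefSeq start of Prtn3 lies inside its longer GENCODE model. The last 65 bases of the Elane window, 53 of the Prtn3 window and 76 of the Mcpt8 window are also exon in GENCODE. Elane and Prtn3 shared 8 runs of at least 7 bases, and 3 of those lay within 10 bases of the same position in both promoters. These 3 runs were chosen after the sequences were seen, and they are in capitals in the 4 stretches that follow, which come from the plus strand at chr10:79886062-79886246, chr10:79886257-79886286, chr10:79879417-79879610 and chr10:79879611-79879640.
Elane, -250 to -66: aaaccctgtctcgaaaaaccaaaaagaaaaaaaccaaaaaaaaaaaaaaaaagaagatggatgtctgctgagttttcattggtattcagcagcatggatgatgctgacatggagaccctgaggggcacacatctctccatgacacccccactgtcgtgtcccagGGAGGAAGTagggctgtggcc
Elane, -55 to -26: aataCAACGGCctctggttccaGCTATAAG
Prtn3, -250 to -57: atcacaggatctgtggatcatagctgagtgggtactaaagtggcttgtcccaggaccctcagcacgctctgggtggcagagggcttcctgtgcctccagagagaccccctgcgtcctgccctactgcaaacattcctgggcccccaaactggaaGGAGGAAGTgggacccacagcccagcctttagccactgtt
Prtn3, -56 to -27: CAACGGCtcccggcagagctggGCTATAAG

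The run GGAGGAAGT started at -86 in Elane and -96 in Prtn3, and 0.566% of all 32851 RefSeq promoters of this length held it. The run CAACGGC started at -51 and -56 and was found in 0.621% of promoters. The run GCTATAAG started at -33 and -34 and was found in 0.17% of promoters. Both of these lay in GENCODE exon, except the first bases of CAACGGC in Prtn3, whereas GGAGGAAGT lay before it. Over the 21 pairs of promoters, the longest shared run ranged from 0 to 10 bases, with a median of 8 bases. Position-matched runs were not limited to the neighbours, since Prtn3 and Cpa3, on different chromosomes, also shared 3.

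The chromosome 14 genes are read from the minus strand, and their stretches lie at chr14:56102575-56102824, chr14:56085274-56085447 and chr14:56262335-56262584. Capitals mark in Ctsg the letters GAGGAA, which the factor PU.1 can bind, and a run of 9 bases shared with Elane. In Mcpt8 and Gzmb, which lie on either side of Ctsg, they mark the longest run that this pair shared. The adjacent pair Ctsg and Mcpt8 shared at most 7 bases.
Ctsg, -250 to -1: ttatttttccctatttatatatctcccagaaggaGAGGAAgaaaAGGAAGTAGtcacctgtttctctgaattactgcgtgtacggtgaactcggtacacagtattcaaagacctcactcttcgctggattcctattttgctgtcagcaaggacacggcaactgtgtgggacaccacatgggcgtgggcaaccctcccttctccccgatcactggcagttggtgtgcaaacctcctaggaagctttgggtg
Mcpt8, -250 to -77: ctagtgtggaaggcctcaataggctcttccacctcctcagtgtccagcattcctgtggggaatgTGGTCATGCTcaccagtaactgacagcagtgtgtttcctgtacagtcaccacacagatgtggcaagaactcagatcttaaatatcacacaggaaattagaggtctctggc
Gzmb, -250 to -1: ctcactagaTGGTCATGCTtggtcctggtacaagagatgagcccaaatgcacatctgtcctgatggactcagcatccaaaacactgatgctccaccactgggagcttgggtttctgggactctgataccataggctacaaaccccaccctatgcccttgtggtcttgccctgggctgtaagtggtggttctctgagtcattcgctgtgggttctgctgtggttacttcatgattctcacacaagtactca

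The run TGGTCATGCT of Mcpt8 (from -186) and Gzmb (from -241) was found in 4 of the 32851 promoters, or 0.0122%. The run AGGAAGTAG of Elane (from -84) and Ctsg (from -206) was found in 0.31% of them. Both runs were chosen as the longest that their pair shared, and both shares count the pair itself. Their rarity therefore follows in part from the choice.

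Cpa3 and Prss34 are shown because their promoters held the letters of a GATA factor site, AGATAA, which are in capitals. The Cpa3 stretch lies on the minus strand at chr3:20242182-20242281 and the Prss34 stretch on the plus strand at chr17:25298294-25298393.
Cpa3, -100 to -1: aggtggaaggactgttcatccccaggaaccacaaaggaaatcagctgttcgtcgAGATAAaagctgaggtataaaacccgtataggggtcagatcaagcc
Prss34, -100 to -1: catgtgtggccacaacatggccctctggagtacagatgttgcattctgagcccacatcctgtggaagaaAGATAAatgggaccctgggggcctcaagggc

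Short letter patterns of 5 factor families were counted on both strands of the 7 promoters and of all promoters. The GATA pattern AGATAA was present in 2 of the 7 (Cpa3 and Prss34), against 9.99% of all promoters. The PU.1 pattern GAGGAA was present in 4 of the 7 (Elane, Prtn3, Ctsg and Mcpt8), against 23.3%. In Elane and Prtn3 it lay inside the shared run GGAGGAAGT. The MYB pattern AACNG was present in 6 of the 7, all but Gzmb, against 74.2%, and in Elane and Prtn3 it also lay inside the shared run CAACGGC. The RUNX pattern TGNGGT was present in Ctsg, Mcpt8, Gzmb, Cpa3 and Prss34, against 40.1%, and 1 Mcpt8 match overlapped the run shared with Gzmb. The C/EBP pattern TTNNGNAA was present in 0 of the 7, against 36.8%. A match describes letters and is not a bound site, and the absence of a match concerns these exact patterns in these windows alone.

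Abundances were given as TPM, which scale each gene per base of transcript to a fixed total per library, so levels of different genes can be compared. Depth is unknown. Between 13215 and 13288 genes reached 1 TPM in each library, and mitochondrially encoded RNA took 4.12 to 4.35% of TPM in ME and 4.49 to 4.85% in L28BME. Lin28b, the gene that defines the contrast, was listed at 0 in the 3 ME libraries, while the 3 L28BME libraries held 11.2, 11.7 and 11.9 TPM. After the culture, RNA of Kit and Cd48, which were used in the sort, was still present in both groups. Kit had means of 94.1 ± 15.7 (ME) and 79.2 ± 8.10 TPM (L28BME; SD, n = 3 each), while Cd48 fell from 297 ± 5.29 to 228 ± 2.24 TPM (limma adjusted p = 0.00089). Ly6a, which encodes Sca1, fell from 10.6 ± 1.09 to 2.07 ± 0.970 TPM (SD, n = 3 each; log2 fold change -1.96, limma adjusted p = 0.00376). Its L28BME libraries were at 3.18, 1.38 and 1.65 TPM, near the filter of 1 TPM. Slamf1, which encodes CD150, was at 0.120 ± 0.108 and 0.634 ± 0.0951 TPM (SD, n = 3 each) and was below the filter of the test. Of the other progenitor genes listed, Flt3 rose from 96.6 ± 3.96 to 187 ± 2.10 TPM (SD, n = 3 each; limma adjusted p = 0.00016) and Cd34 fell from 506 ± 3.71 to 440 ± 3.76 TPM (limma adjusted p = 0.00385).

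Of the 8 protease genes, 5 were lower in L28BME (Ctsg, Elane, Mcpt8, Gzmb and Cpa3), 0 were higher and 3 were not called (Prtn3, Prss34 and Prss57). At an unadjusted limma p under 0.05, 7 were lower and 0 higher, beside 13.7% and 16.0% of all genes tested. Gene identifiers are those of the table and gene positions are GENCODE models on GRCm38. Calls required an adjusted p under 0.05 from limma on log2(TPM + 1), adjusted over all 13348 genes. Over all genes tested, 6.60% were called lower, 8.28% higher and 14.9% in either direction. The log2 fold changes of L28BME against ME, on the log2(TPM + 1) scale, ranged from -1.07 for Gzmb to -0.03 for Prss57. Their median was -0.41, beside 0.00 over all genes tested, and all 8 were below 0. In 6 of the 8 the groups did not overlap, with every L28BME library below every ME library, whereas 36.7% of all genes had groups that did not overlap, 17.4% with L28BME below. In bulk RNA, fewer cells of a type and less of the RNA per cell cannot be told apart.

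**Figure D1:**
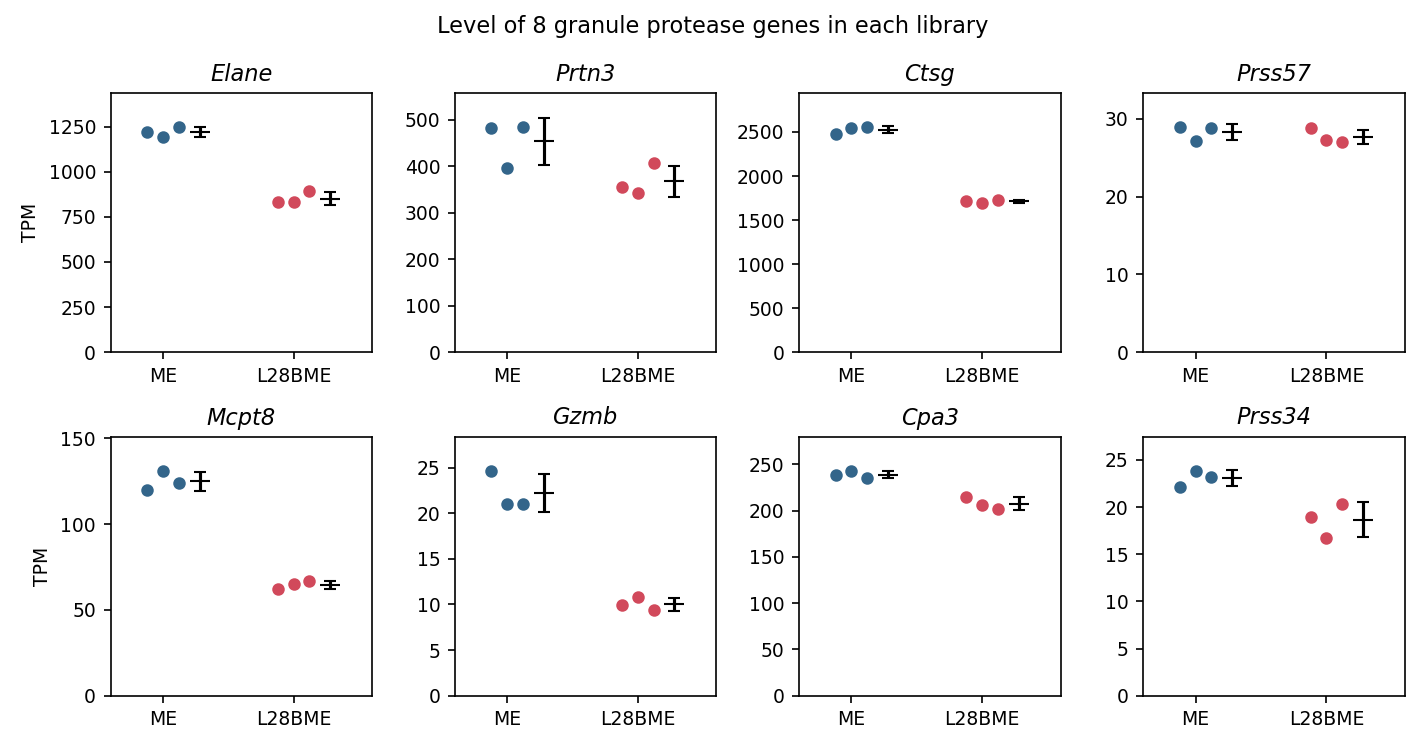
TPM of the 8 protease genes in each of the 3 ME and 3 L28BME libraries, with each axis starting at 0; points are libraries, and the bars beside them give the group mean ± SD. The groups are separate in 6 genes and overlap in Prtn3 and Prss57.

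Ctsg (ENSMUSG00000040314, chr14:56099881-56102574, minus strand, 5 exons) encodes cathepsin G, a chymotrypsin-like protease of azurophil granules, and was the most abundant of the 8. It stood at 2480, 2544 and 2554 TPM in ME and at 1713, 1697 and 1724 TPM in L28BME. The 3 libraries of each group lay close together, and a wide gap separated the groups. The mean fell from 2526 ± 39.9 to 1711 ± 13.6 TPM (SD, n = 3 each), a change of -32.2%. The log2 fold change was -0.56 (limma adjusted p = 0.000157, SE 0.023). Ctsg was the gene of rank 27 by mean TPM among the tested genes in ME and of rank 65 in L28BME.

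Elane (ENSMUSG00000020125, chr10:79886247-79888215, plus strand, 5 exons) encodes neutrophil elastase, the best known of the azurophil proteases. It was at 1217, 1192 and 1246 TPM in ME and at 832, 829 and 892 TPM in L28BME. The highest L28BME library was below the lowest ME library. The mean fell from 1218 ± 27.0 to 851 ± 35.5 TPM (SD, n = 3 each), a change of -30.1%, with a log2 fold change of -0.52 (limma adjusted p = 0.00089, SE 0.037). Its rank by mean TPM was 103 in ME and 135 in L28BME. The ratio of Ctsg to Elane was 2.07 in ME and 2.01 in L28BME, as a ratio of mean TPM.

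Prtn3 (ENSMUSG00000057729, chr10:79874476-79883174, plus strand, 5 exons), the neighbour of Elane, encodes proteinase 3. Its libraries were at 482, 396 and 484 TPM in ME and at 354, 342 and 406 TPM in L28BME. ME replicate 2 was the lowest of its group and lay below L28BME replicate 3, so the groups overlapped. The means were 454 ± 50.4 and 367 ± 33.7 TPM (SD, n = 3 each), and the log2 fold change of -0.30 (95% confidence interval -0.55 to -0.06) was not called (limma adjusted p = 0.106). Without ME replicate 2 it was -0.40 and was called (limma adjusted p = 0.0476). The Prtn3 gene model shares 159 bases with Plppr3 on the opposite strand, and with those overlapping models summed on either strand, which also draws in Ptbp1, the log2 fold change was -0.05 (limma adjusted p = 0.766).

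Prss57 (ENSMUSG00000020323, chr10:79781474-79790961, minus strand, 6 exons) encodes neutrophil serine protease 4, which cleaves after arginine. It was at 28.9, 27.1 and 28.8 TPM in ME and at 28.8, 27.2 and 27.0 TPM in L28BME, so the ranges of the groups lay almost on top of each other. The log2 fold change was -0.03 (limma adjusted p = 0.746), with a 95% confidence interval of -0.16 to 0.10. That interval does not reach the log2 fold changes of Elane and Ctsg. Its gene model shares 1157 bases with Fstl3 on the opposite strand, and Fstl3 was at 1.38 ± 0.153 and 1.94 ± 0.134 TPM (SD, n = 3 each).

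Mcpt8 (ENSMUSG00000022157, chr14:56082166-56085273, minus strand, 5 exons) encodes mast cell protease 8, which despite its name is a protease of mouse basophils. It was at 120, 131 and 124 TPM in ME and at 62.1, 64.9 and 67.0 TPM in L28BME. Each L28BME library was far below the lowest ME library. The mean fell from 125 ± 5.71 to 64.7 ± 2.44 TPM (SD, n = 3 each), a change of -48.2%, with a log2 fold change of -0.94 (limma adjusted p = 0.000341, SE 0.049).

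Gzmb (ENSMUSG00000015437, chr14:56258838-56262260, minus strand, 5 exons) encodes granzyme B, a protease that cleaves after aspartate and is best known from cytotoxic lymphocytes. It was at 24.7, 21.1 and 21.1 TPM in ME and at 9.93, 10.8 and 9.38 TPM in L28BME. ME replicate 1 was the highest of its group, and the groups were again apart. The mean fell from 22.3 ± 2.08 to 10.03 ± 0.720 TPM (SD, n = 3 each), a change of -54.9%. The log2 fold change of -1.07 (limma adjusted p = 0.00126, SE 0.089) was the lowest of the 8 and gave Gzmb rank 79 among all genes tested, ordered from the lowest log2 fold change. Mcpt8 had rank 123, Ctsg 411 and Elane 484.

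Cpa3 (ENSMUSG00000001865, chr3:20215620-20242181, minus strand, 11 exons) encodes carboxypeptidase A3, the only member here that is not a serine protease. It was at 238, 243 and 235 TPM in ME and at 215, 206 and 202 TPM in L28BME. The groups did not overlap, but the gap between them was small beside that of Mcpt8 or Gzmb. The mean fell from 239 ± 3.89 to 208 ± 6.87 TPM (SD, n = 3 each), a change of -13.0%, with a log2 fold change of -0.20 (limma adjusted p = 0.015, SE 0.035). The call was lost without ME replicate 2 (limma adjusted p = 0.058) and without L28BME replicate 2 (limma adjusted p = 0.0525).

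Prss34 (ENSMUSG00000056399, chr17:25298394-25300165, plus strand, 5 exons) encodes mast cell protease 11, which is found in basophils. It was at 22.2, 23.9 and 23.2 TPM in ME and at 19.0, 16.7 and 20.3 TPM in L28BME. All L28BME libraries were below all ME libraries, yet the L28BME libraries were spread over a range nearly as wide as the difference. The means were 23.1 ± 0.854 and 18.7 ± 1.83 TPM (SD, n = 3 each), and the log2 fold change of -0.30 (95% confidence interval -0.50 to -0.10) was not called (limma adjusted p = 0.0634).

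**Figure D2:**
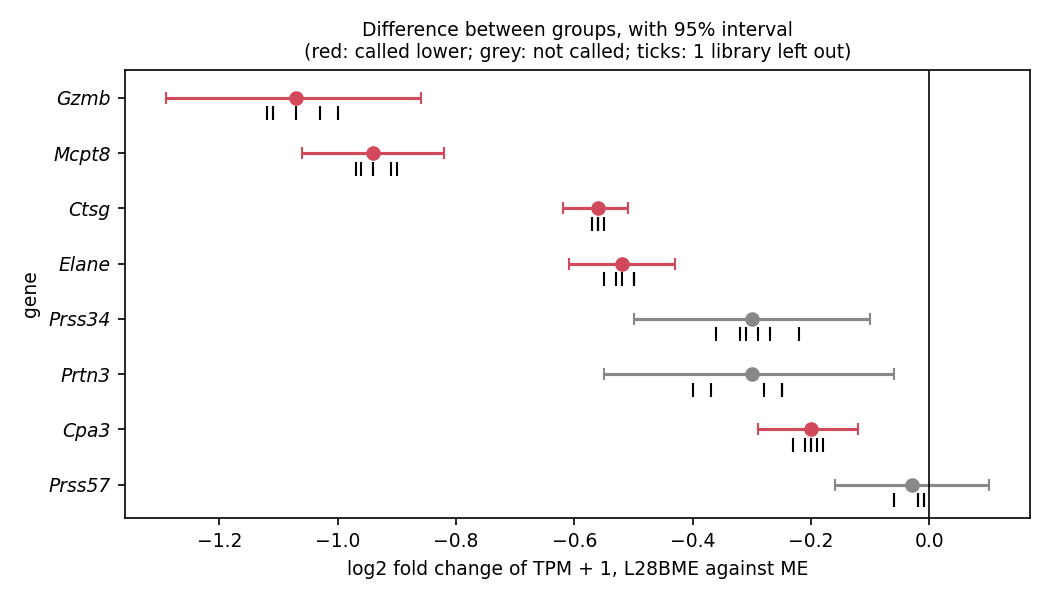
Log2 fold change of each protease gene, L28BME against ME, on the log2(TPM + 1) scale; points are the limma estimates, bars are 95% confidence intervals and ticks are the estimates with 1 library left out. Gzmb (-1.07) and Mcpt8 (-0.94) lie lowest, and the interval of Prss57 crosses 0.

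Summed over the 8 genes, TPM was 4613, 4577 and 4716 in ME and 3234, 3195 and 3348 in L28BME. The sums were lower in every L28BME library. The group means were 4635 ± 72.0 and 3259 ± 79.5 TPM (SD, n = 3 each), a difference of -29.7% (exact two-sided permutation p = 0.1, the smallest that 3 against 3 can give). The 8 genes took 0.464 ± 0.0072% of all TPM in ME and 0.326 ± 0.0079% in L28BME (SD, n = 3 each). Ctsg alone made up 54.5 ± 0.95% of the sum in ME and 52.5 ± 0.89% in L28BME, and Elane 26.3 ± 0.21% and 26.1 ± 0.48%. Mcpt8 made up 2.70 ± 0.15% and 1.98 ± 0.057% of the sum and Cpa3 5.15 ± 0.16% and 6.37 ± 0.32%. The most abundant member exceeded the least abundant by 113-fold in ME, where Gzmb was lowest, and by 171-fold in L28BME, where Gzmb was again lowest.

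Proteases that lie on the same chromosome were also compared with each other as ratios of TPM within each library. On chromosome 10, Prss57, Prtn3 and Elane span 107 kb, and Elane starts 3.07 kb after Prtn3 ends. The ratio of Elane to Prtn3 was 2.52 to 3.01 in ME and 2.20 to 2.42 in L28BME, and the ratio of Elane to Prss57 was 42.1 to 44.0 and 28.9 to 33.0. Neither ratio overlapped between the groups. On chromosome 14, Mcpt8, Ctsg and Gzmb span 180 kb, with 14.6 kb between Mcpt8 and Ctsg and 156 kb between Ctsg and Gzmb. The ratio of Ctsg to Mcpt8 was 19.4 to 20.7 in ME and 25.7 to 27.6 in L28BME, and that of Ctsg to Gzmb was 101 to 121 and 157 to 184. These 2 ratios were also apart between the groups, whereas Mcpt8 to Gzmb (4.86 to 6.23 and 6.01 to 7.14) and Prtn3 to Prss57 (14.6 to 16.8 and 12.3 to 15.0) overlapped. With 6 pairs tested, the 4 ratios that did not overlap each had an exact two-sided permutation p of 0.1, the smallest this design allows, and an adjusted p of 0.15. The other two had p = 0.2 in the same exact test and an adjusted p of 0.2.

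Within 100 kb of a member, 29 other genes were tested, of which 3 were higher and 1 was lower. These shares are near the 8.28% and 6.60% of all genes, so the counts say nothing particular about the regions. All 3 higher genes lay in the chromosome 10 region, where 18 neighbours were tested. Arid3a, which encodes a DNA-binding protein of B cells and haematopoietic progenitors and starts 38.8 kb from Elane, rose from 27.5 ± 0.180 to 86.0 ± 0.860 TPM (SD, n = 3 each), with a log2 fold change of 1.61 (limma adjusted p = 1.88e-05). Cdc34, a ubiquitin-conjugating enzyme gene 93.1 kb from Prss57, rose from 86.8 ± 3.61 to 160 ± 16.8 TPM (SD, n = 3 each; limma adjusted p = 0.00205). Palm, 2.61 kb from Prss57, rose from 64.2 ± 3.97 to 79.1 ± 4.43 TPM (SD, n = 3 each; limma adjusted p = 0.029), and this call was kept only when ME replicate 3 was the library left out (limma adjusted p = 0.0306, beside 0.06 to 0.0921 for the other 5). On chromosome 14, 2 neighbours were tested. Of these Gzmc, granzyme C, 24.2 kb from Gzmb, was lower. None of the 6 tested neighbours of Prss34 or the 3 of Cpa3 was called by limma, and 0 of these reached an unadjusted p under 0.05. At that threshold 6 of the 18 neighbours on chromosome 10 and 2 of the 2 on chromosome 14 passed. Over all genes tested, 13.7% were lower and 16.0% higher at that threshold.

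**Figure D3:**
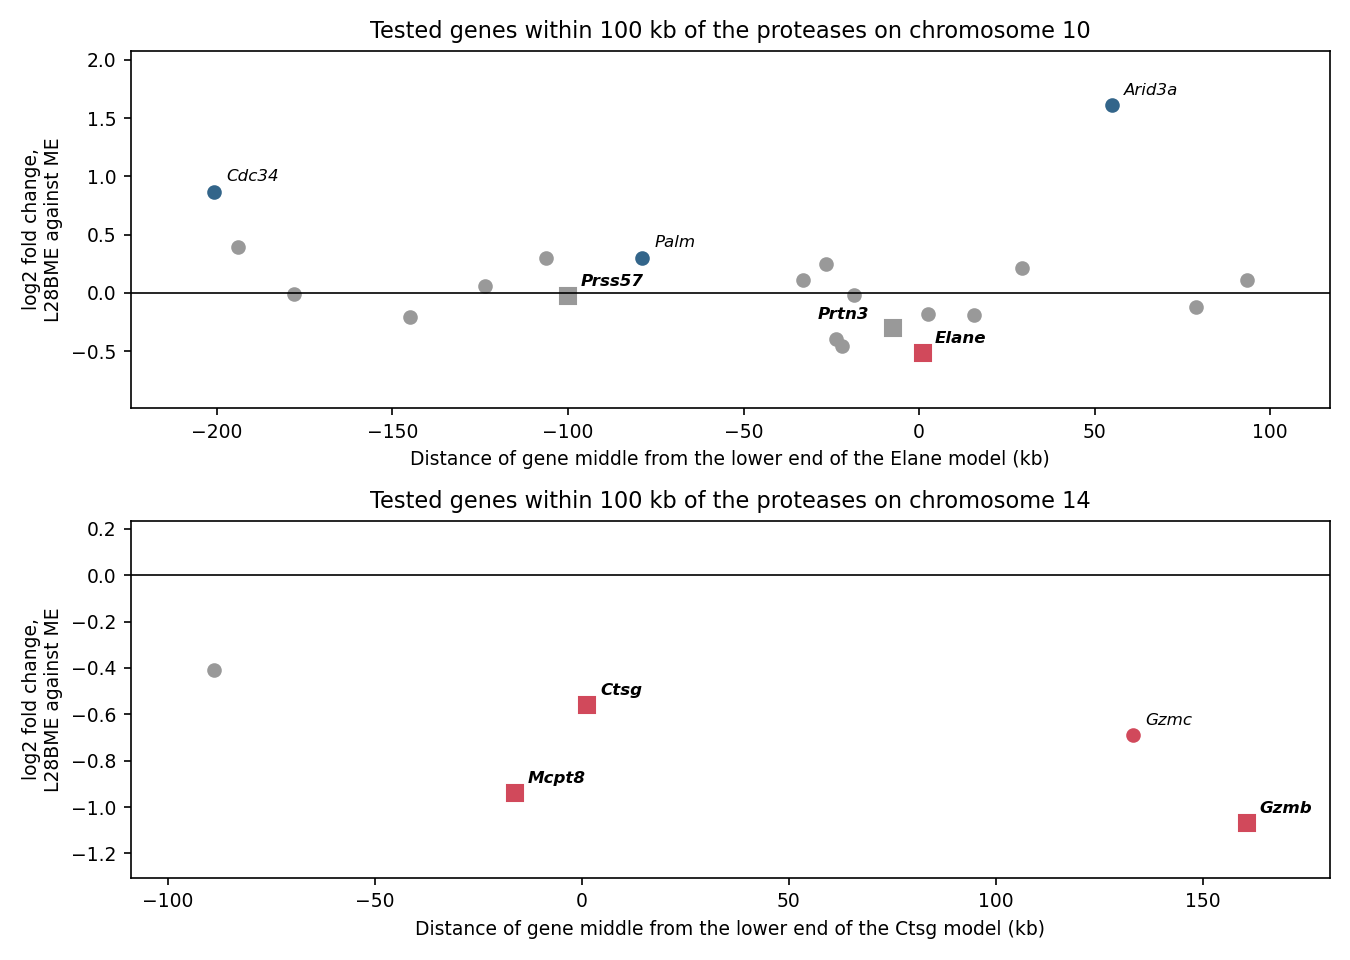
Log2 fold change, L28BME against ME, of tested genes within 100 kb of the proteases on chromosomes 10 and 14, by distance in kb of each gene's middle from the lower end of Elane or Ctsg; squares are the proteases, circles other genes, red called lower, blue called higher and grey not called. On chromosome 10 Elane and Prtn3 lie below 0 while Arid3a (1.61) and Cdc34 (0.87) lie above it.

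Most other granule proteases were scarcely present. Of 21 listed, 12 were at 0 in every library and 17 stayed under 1 TPM throughout. The other 4 were tested, with 1 higher and 1 lower (median log2 fold change 0.10), beside 8.28% and 6.60% of all genes tested. Those at 0 included the mast cell chymase Mcpt4 and the tryptase Tpsab1. Gzmc fell from 3.06 ± 0.266 to 1.54 ± 0.493 TPM (SD, n = 3 each; log2 fold change -0.69, limma adjusted p = 0.039), but kept its call only without L28BME replicate 1 and otherwise reached 0.0831 to 0.115 with a library left out. Mmp8, the neutrophil collagenase, rose from 11.9 ± 0.847 to 15.4 ± 1.02 TPM (SD, n = 3 each; log2 fold change 0.35, limma adjusted p = 0.0353), and kept its call only without L28BME replicate 2, with 0.0503 to 0.107 otherwise. Tpsg1 and Gzmm were not called. How the authors' quantification divided reads among related genes of the chymase and granzyme cluster is not known from the sources used here.

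Genes that activate, package and move the proteases were mostly not called: of 14 tested, 2 were lower and 0 higher (median log2 fold change 0.05). The shares over all genes tested were 6.60% lower and 8.28% higher. At an unadjusted limma p under 0.05, 2 were higher and 2 lower, beside 16.0% and 13.7% of all genes tested. Ctsc, which encodes the activating enzyme cathepsin C, had means of 106 ± 3.79 (ME) and 122 ± 8.996 TPM (L28BME; SD, n = 3 each; log2 fold change 0.19, limma adjusted p = 0.0927, and 0.0446 without L28BME replicate 3). Srgn, the serglycin core protein that retains some proteases in granules, fell from 1555 ± 28.6 to 1302 ± 29.0 TPM (SD, n = 3 each; log2 fold change -0.26, limma adjusted p = 0.00317). Cst7, cystatin F, an inhibitor of cathepsins including cathepsin C, fell from 448 ± 4.89 to 351 ± 10.8 TPM (SD, n = 3 each; log2 fold change -0.35, limma adjusted p = 0.00159). Stx11, a syntaxin of granule release, was at 3.20 ± 0.296 and 4.08 ± 0.273 TPM and was not called.

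Of 7 tested protease inhibitors, 4 were lower and 1 was higher, beside 6.60% and 8.28% of all genes tested. The median log2 fold change of these 7 was -0.37. Slpi, the secretory inhibitor of elastase and cathepsin G, fell from 181 ± 2.59 to 118 ± 5.20 TPM (SD, n = 3 each; log2 fold change -0.62, limma adjusted p = 0.000679). Serpinb1a, an intracellular serpin that blocks neutrophil serine proteases, fell from 255 ± 2.92 to 197 ± 9.91 TPM (SD, n = 3 each; log2 fold change -0.37, limma adjusted p = 0.00351). Both showed no overlap between groups. Serpina3g fell from 274 ± 13.0 to 189 ± 9.38 TPM (SD, n = 3 each; log2 fold change -0.53, limma adjusted p = 0.00234), and its relative Serpina3f from 17.1 ± 1.54 to 10.6 ± 1.59 TPM (log2 fold change -0.64, limma adjusted p = 0.02). The Serpina3f call was lost without any 1 ME replicate and without L28BME replicate 2 (limma adjusted p = 0.0513 to 0.0625). Serpinb6b rose from 5.91 ± 0.1004 to 9.01 ± 1.31 TPM (SD, n = 3 each; limma adjusted p = 0.0292), and kept its call only without L28BME replicate 1, with 0.0784 to 0.0907 otherwise.

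**Figure D4:**
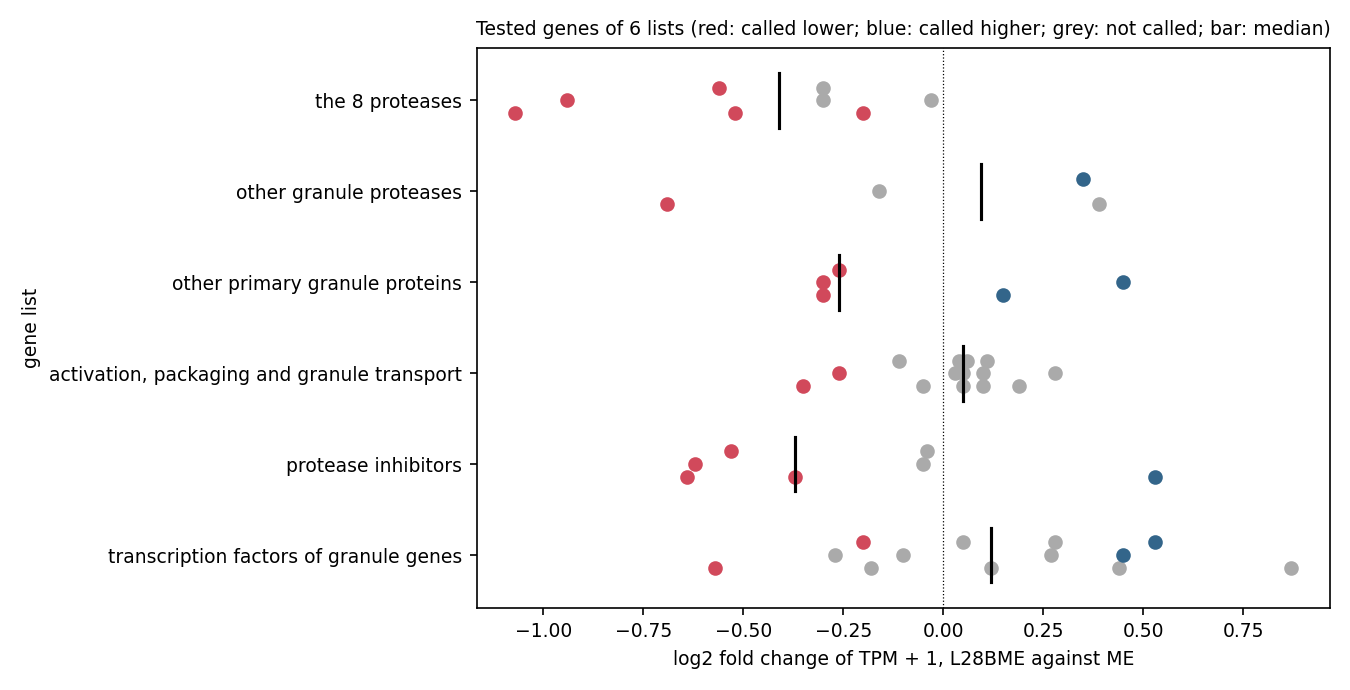
Log2 fold change, L28BME against ME, of each tested gene in the 8 proteases and the lists of related genes; each point is a gene, colour gives the call and the vertical bar is the list's median. The medians lie at -0.41 for the proteases, -0.37 for the inhibitors and 0.05 for the activation and packaging genes.

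Transcription factors known to act on granule genes were called in both directions: 2 of 13 were lower and 2 higher (median log2 fold change 0.12). The shares over all genes tested were 6.60% lower and 8.28% higher. Gfi1, a repressor needed for granulocyte development, fell from 63.7 ± 0.760 to 42.4 ± 0.242 TPM (SD, n = 3 each; log2 fold change -0.57, limma adjusted p = 0.000542). Myb, an activator in early myeloid cells, fell from 363 ± 4.29 to 316 ± 2.56 TPM (SD, n = 3 each; log2 fold change -0.20, limma adjusted p = 0.00469). Gata1, a factor of the erythroid, mast cell and basophil lineages, rose from 12.1 ± 0.817 to 17.9 ± 2.18 TPM (SD, n = 3 each; limma adjusted p = 0.0209), a call lost without ME replicate 1, ME replicate 2 or L28BME replicate 1 (limma adjusted p = 0.0555 to 0.0708). Cebpb rose from 10.3 ± 0.490 to 14.5 ± 1.58 TPM (SD, n = 3 each; limma adjusted p = 0.0275), a call kept only without L28BME replicate 2 and otherwise at 0.0681 to 0.0867. Spi1, which encodes PU.1, was at 103 ± 2.12 and 107 ± 4.65 TPM and was not called. Cebpa was at 3.94 ± 0.521 and 9.35 ± 7.04 TPM (SD, n = 3 each; log2 fold change 0.87) and was not called (limma adjusted p = 0.248). Its L28BME libraries were at 17.4, 5.93 and 4.67 TPM, all above the ME libraries. Irf8, at 50.7 ± 7.60 and 70.3 ± 18.5 TPM, was called higher only without L28BME replicate 3 (limma adjusted p = 0.0475). Of the 13 factors, 5 had a log2 fold change below 0.

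Of the other proteins of primary granules, 5 were tested, with 3 lower and 2 higher (median log2 fold change -0.26). The shares over all genes tested were 6.60% lower and 8.28% higher. Lysozyme, Lyz2, fell from 171 ± 3.55 to 139 ± 4.90 TPM (SD, n = 3 each; log2 fold change -0.30, limma adjusted p = 0.0049), and the granule membrane protein gene Cd63 from 411 ± 16.7 to 343 ± 5.92 TPM (log2 fold change -0.26, limma adjusted p = 0.00793). Mpo, myeloperoxidase, fell from 5074 ± 19.3 to 4140 ± 368 TPM (SD, n = 3 each; log2 fold change -0.30, limma adjusted p = 0.0277), but kept its call only without L28BME replicate 3, with 0.0649 to 0.0887 otherwise. The higher genes were Fcnb, a ficolin, called only without ME replicate 1 when a library was left out, and Gusb, a lysosomal glucuronidase whose call was lost without any 1 of the 6 libraries.

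Markers of other cells that make these proteases were measured beside them. Of the mast cell markers 6 of 12 were tested and 0 called, their summed TPM was 306 to 336 in ME and 286 to 308 in L28BME, and Mcpt4, Tpsab1, Mrgprb1 and Mrgprb2 were at 0 in all libraries. At an unadjusted limma p under 0.05, 2 of these markers were lower and 1 higher, where 13.7% and 16.0% of all genes were. Without ME replicate 1, 2 of the 6, Fcer1a and Il1rl1, were called lower (limma adjusted p = 0.0416 and 0.0413). The mast cell sum includes Kit, also used in the sort, at means of 94.1 (ME) and 79.2 TPM (L28BME) and not called. Basophil markers summed to 366 to 405 TPM in ME and 347 to 362 TPM in L28BME. Fcer1a, Ms4a2 and Hdc were on both lists and count in both sums. Beside 6.60% lower and 8.28% higher over all genes tested, 1 of the 7 basophil markers tested was lower and 0 higher. The lower gene was Cyp11a1, at 201 ± 4.82 and 164 ± 2.01 TPM (SD, n = 3 each; log2 fold change -0.29, limma adjusted p = 0.00295). It was the largest part of the basophil sum. Of the 7 tested, 4 had a log2 fold change below 0, and the median was -0.02. Without ME replicate 1, 2 basophil markers were called lower, Cyp11a1 and Fcer1a. Il4 was called higher without ME replicate 2 (limma adjusted p = 0.0449). The part of these cells in the levels of Mcpt8, Cpa3 and Prss34 was not tested.

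T and NK cell markers, listed because lymphocytes make granzyme B, summed to 0.533 to 1.20 TPM in ME and 2.75 to 3.38 TPM in L28BME. Cd3e, Trbc1, Trbc2, Cd8a, Cd8b1 and Ncr1 were at 0 in every library, and 14 of the 15 stayed under 1 TPM. The other gene, Prf1 (perforin), rose from 0.475 ± 0.271 to 1.63 ± 0.359 TPM (SD, n = 3 each; limma adjusted p = 0.0336), and its call was lost without any 1 of the 6 libraries. The part of such cells in the level of Gzmb was not tested. Mature neutrophil markers summed to 244 to 252 TPM in ME and 551 to 575 TPM in L28BME, mostly from S100a8 and S100a9. Mean S100a8 was 93.8 (ME) and 241 TPM (L28BME), and mean S100a9 was 85.7 and 237 TPM. Of 7 tested, S100a8, S100a9, Ngp and Ltf were higher and Csf3r lower, beside 8.28% higher and 6.60% lower over all genes tested. The Csf3r call was kept only without L28BME replicate 1 when a library was left out. Camp and Cxcr2 were not called, although Camp was called higher without L28BME replicate 1 (limma adjusted p = 0.043). Ly6g, Retnlg and Mmp25 were below the filter of the test. Summed levels of macrophage markers were 97.4 to 98.4 TPM in ME and 84.1 to 89.0 TPM in L28BME, mostly from Cd68, which was lower, while Csf1r was higher. Those of stromal and endothelial markers were 185 to 187 and 139 to 142 TPM, mostly from Pecam1, which fell from 163 to 113 TPM, while Pdgfrb rose from 22.7 to 27.8 TPM (limma adjusted p = 0.000463 and 0.0204) and 6 of the 8 stayed under 1 TPM. The Csf1r call was lost without any 1 of the 6 libraries, and the Pdgfrb call was kept only without ME replicate 1 or L28BME replicate 2. Erythroid markers summed to 9.92 to 18.7 TPM in ME and 19.2 to 32.7 TPM in L28BME, mostly from Hbb-bt (limma adjusted p = 0.11). Of these markers 3 were tested and 0 called, and Hba-a2 and Alas2 were at 0 in every library. The part of such cells in the levels of Elane, Prtn3, Ctsg and Prss57 was not tested.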

How the data were processed

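Per the labels' protocols, RNA of the cultured GMLPs was purified with a Norgen single-cell kit and made into TruSeq Stranded mRNA libraries. Tools listed in the submitters' processing notes are bcl2fastq, HISAT2, StringTie and DESeq2, with the build GRCm38. Versions, and any use of strand when reads were assigned, are not stated there. The authors deposited TPM per gene, so depth is unknown and no count test was run.

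The 8 proteases and all gene lists were chosen with earlier results of these data known. Values were taken as log2(TPM + 1), a scale that understates changes of low genes. Genes were tested where 3 or more of the 6 libraries reached a TPM of 1. The test was limma 3.58.1 in R 4.3.3 (intensity trend, two-sided), with Benjamini-Hochberg adjustment over all 13348 genes and calls at an adjusted p under 0.05. The procedure was tested on simulated data. Ratios and sums were compared by exact two-sided permutation in scipy 1.17.1. Named genes were the proteases, Lin28b, up to 4 tested genes per list with the smallest p, tested neighbours within 100 kb and the 1 gene most like each protease. Spi1, Cebpa, Irf8, Serpinb6b, Gusb, Il4, Csf3r, Camp, Cxcr2, Ly6g, Retnlg and Mmp25 were named after their values were seen. Alternatives were other pseudocounts, filters, scalings, limma options, summed overlapping genes, a replicate term and leaving out each library. Promoters came from RefSeq and gene positions from GENCODE.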

Additional observations from a re-analysis of the deposited data

How the results depend on the processing

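Elane, Ctsg, Mcpt8 and Gzmb were called lower in all 19 fits run (the reported one, 12 other settings and 6 that left out 1 library). With a library left out, their highest limma adjusted p was 0.00694, 0.00219, 0.00356 and 0.00938. Cpa3 lost its call without ME replicate 2 or L28BME replicate 2 and under the replicate block, Prtn3 gained one without ME replicate 2, and Prss57 and Prss34 were called in none of the 19. The count of proteases called lower ranged from 4 to 5 with a library left out, and none was called higher. Over all genes, 617 to 693 were called higher and 461 to 582 lower with a library left out, from fewer samples per fit. No result reversed, and other scalings moved the median of all genes by at most 0.010 (log2). Equal replicate numbers did not go with shared deviations (r of same-numbered samples -0.032, -0.0743 and -0.0516, across genes). With a replicate block, 548 genes were called higher and 400 lower, 4 of the 8 proteases were called, and Cpa3 had an adjusted p of 0.0536 in limma. The cause was not tested. Without the filter on low values, more genes were tested and the calls of Gzmc, Mmp8, Serpinb6b, Cebpb, Mpo, Fcnb, Gusb, Prf1 and Csf3r were lost. Levels near the filter of 1 TPM are limited by unknown depth.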

Other observations

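For each protease, the other tested gene with a mean of at least 5 TPM whose log2(TPM + 1) had the highest Pearson r over the 6 libraries was found, as a description over 6 samples that share 2 groups. For Ctsg this was Anxa5, a calcium-dependent membrane-binding protein gene (r = 0.9996), with means of 171 ± 3.90 (ME) and 111 ± 0.864 TPM (L28BME; SD, n = 3 each). For Elane it was Cd68, a glycoprotein of lysosomal membranes (r = 0.9989), at 69.8 ± 0.818 and 52.5 ± 2.22 TPM. For Gzmb it was Cd96, a receptor of lymphocytes and progenitors (r = 0.9982), at 31.3 ± 1.35 and 20.0 ± 1.04 TPM. For Cpa3 it was Hspa5, the chaperone BiP of the endoplasmic reticulum (r = 0.9984), at 797 ± 20.8 and 645 ± 29.8 TPM, and for Mcpt8 it was Tbc1d2b (r = 0.9987), at 37.7 ± 0.343 and 29.9 ± 0.487 TPM. For Prtn3 it was Mrtfb (r = 0.9964), for Prss57 Zyg11b (r = 0.9998) and for Prss34 the pseudogene Gm6274 (r = 0.9918). Since these genes were chosen for their likeness over the same libraries, their differences between the groups follow from the choice and are no separate result.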
